A study of Homo sapiens with 8 samples.

Results

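The genes described here encode the proteins of the mitochondrial ribosome, the machine that makes the few proteins encoded by mitochondrial DNA. They were taken as all genes whose symbol starts with MRPL or MRPS followed by a number, pseudogenes aside, each read by the brightest, on average, of its probe sets that name 1 gene. Of 77 such genes in the RefSeq gene table, 75 could be read in this way, among 19775 genes tested. The other 2, MRPL53 and MRPS24, were found only on probe sets that list several genes and were left out. Of the 75 members, 50 belong to the large subunit and 25 to the small subunit, and 45 have a counterpart in the bacterial ribosome while 30 do not. Messenger RNA was measured in CUTLL1 cells, a human T-cell line with an active NOTCH1 pathway. Cells received both compounds together (the combination), PF-03084014 alone, dexamethasone alone, or the DMSO vehicle, each for 48 h and with each compound at 1 microM. There were 2 Affymetrix arrays per treatment, 8 in all, every one from the same line, so the results describe 1 line at 1 time and 1 dose. The labels number the arrays of a treatment 1 and 2 and do not tell whether the cultures were separate, so the p-values cover the spread among these arrays alone, which may be technical.

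Mitochondrial ribosomal proteins are encoded in the nucleus, translated in the cytosol and imported into the mitochondrial matrix, where they join ribosomal RNA made from mitochondrial DNA. The small subunit binds the messenger RNA and hosts the decoding site, and the large subunit forms the peptide bond and holds the exit tunnel. The products are hydrophobic subunits of the respiratory chain and the ATP synthase, so the supply of these proteins is tied to respiratory capacity. PF-03084014 inhibits gamma-secretase, the protease that releases the active part of NOTCH receptors. Dexamethasone, a man-made glucocorticoid hormone, acts through the glucocorticoid receptor.

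Differences between treatments are on the log2 scale of intensity, after values under 16 were set to 16, and ± gives the standard error of 1 limma fit over all 8 arrays unless an SD is named. The words called, rose and fell are kept for an adjusted p under 0.05, by the Benjamini-Hochberg method over all 19775 genes. In lysates of whole cultures, fewer cells of a kind and less RNA per cell cannot be told apart. Known targets of both compounds were called, though of 3 genes checked for the glucocorticoid 1 was not called with dexamethasone alone. DTX1, a NOTCH target, had 672 and 659 with PF-03084014 and 767 and 651 with the combination, against 2960 and 3096 with DMSO, and was called lower in both comparisons, as were HES1 and NRARP. TSC22D3, a glucocorticoid target, had 5526 and 5478 with dexamethasone and 7836 and 7697 with the combination, against 506 and 583 with DMSO, and it rose in both, as did FKBP5. Among 13 T-lineage genes CD3D and LCK, chosen after their values were seen, ran from 12131 to 14030 and from 8114 to 8996. Several of the 13 were called against DMSO. With the combination 5 rose (38.5%) and 1 fell (7.69%), beside 6.43% and 5.54% of all genes. Under PF-03084014 alone 2 rose (15.4%) and 1 fell (7.69%), beside 0.475% and 0.349%. Under dexamethasone alone 1 rose (7.69%), beside 0.086%. The second combination array stood apart: its median over all probe sets was 76.3, against 61.8 to 63.9 on the other 7 arrays, and 43.9% of its probe sets exceeded 100, against 40.4% to 41.0%. Its ratio of the 3-prime to the 5-prime probe set was 2.27 for ACTB, against 1.82 to 2.26 on the others, and 1.04 for GAPDH, against 0.931 to 0.979. The members' medians with the combination are therefore also given for each of its arrays.

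All 75 members were bright. Their mean intensities over the 8 arrays ran between 272 and 7519 with a median of 2414, against a median of 137 for all genes. The brightest probe sets were those of MRPL57, MRPL51, MRPL3, MRPS6 and MRPS15, with means of 7519, 7059, 6949, 5748 and 5426. The dimmest were those of MRPL38 at 272, MRPS2 at 643, MRPL2 at 644, MRPL44 at 807 and MRPL4 at 898. Intensities of different probe sets depend on the probes as well as the transcript, so this order is one of probe sets and not of mRNA amounts. The standard error of a difference had a median of 0.105 over the members, against 0.177 over all genes.

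The stretch just upstream of the transcription start was read from RefSeq (GRCh38.p14) for 67 members, and 8 members had no entry. The letters CCGGAAG, the core recognised by ETS-family factors such as GABP, occurred on either strand of the 250 upstream bases in 22 of 67 members (32.8%), against 12.7% of 13454 protein-coding genes with a promoter entry among those tested. The half-site TGCGCA of NRF1, a regulator of nuclear genes for mitochondria, occurred in 13 (19.4%), against 9.62%. The YY1 motif AAGATGGCG occurred in 3 (4.48%), against 0.825%. Shares near the background were found for the E-box CACGTG, bound by MYC and its partners, at 8.96% against 8.07%, and for TGGGAA, the core bound by the NOTCH partner RBPJ, at 20.9% against 20.0%. CCAAT occurred in 28.4% against 34.4%, and the cAMP response element TGACGTCA matched in none, against 2.48%. Matches can overlap and are descriptions of letters, not of binding. The members' differences between the combination and DMSO were set beside these letters for 6 motifs, with no test. The median was -0.10 with and -0.25 without CCGGAAG, -0.20 and -0.24 for the NRF1 half-site, -0.27 and -0.21 for TGGGAA, and -0.22 and -0.23 for CCAAT. The 6 members with an E-box had -0.08 and the 3 with the YY1 motif -0.11. Called lower were 0 of 22 members with CCGGAAG, 2 of 13 with the half-site, 2 of 14 with TGGGAA and 0 of 19 with CCAAT. So were 0 of 6 with an E-box and 0 of 3 with the YY1 motif, beside 5.54% of all genes. Counts without the letters were 6 of 45 for CCGGAAG, 4 of 54 for the half-site and 4 of 53 for TGGGAA. For CCAAT, the E-box and the YY1 motif they were 6 of 48, 6 of 61 and 6 of 64. Each 0 thus rests on 6 called members with an entry.

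The upstream windows of 4 members show this range. MRPL17, the member with the largest fall, lies at chr11:6683341-6683590 on the minus strand and is the one member with the full palindromic NRF1 motif, which here overlaps 2 half-sites and is found in 1.64% of protein-coding genes tested, and MRPS33, also called lower, lies at chr7:141014953-141015202 on the minus strand with 1 half-site. MRPS34, among the lowest with the combination but not called, lies at chr16:1773135-1773384 on the minus strand with 3 matches to CCGGAAG or its reverse complement. MRPS25, whose call held in 16 of 18 alternatives of the analysis, lies at chr3:15065316-15065565 on the minus strand and holds none of the letters searched. Each line gives the 250 bases before the transcription start in the direction of the gene, and capitals mark matches to the NRF1 half-site or the ETS core.
MRPL17: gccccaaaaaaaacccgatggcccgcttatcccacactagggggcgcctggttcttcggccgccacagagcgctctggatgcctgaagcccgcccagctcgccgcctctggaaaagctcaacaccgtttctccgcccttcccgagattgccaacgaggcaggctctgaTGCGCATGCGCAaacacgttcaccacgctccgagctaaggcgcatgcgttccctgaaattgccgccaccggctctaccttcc
MRPS33: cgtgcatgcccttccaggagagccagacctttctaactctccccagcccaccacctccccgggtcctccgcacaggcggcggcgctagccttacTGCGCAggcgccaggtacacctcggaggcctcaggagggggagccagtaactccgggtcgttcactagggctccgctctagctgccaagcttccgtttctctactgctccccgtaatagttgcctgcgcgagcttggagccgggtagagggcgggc
MRPS34: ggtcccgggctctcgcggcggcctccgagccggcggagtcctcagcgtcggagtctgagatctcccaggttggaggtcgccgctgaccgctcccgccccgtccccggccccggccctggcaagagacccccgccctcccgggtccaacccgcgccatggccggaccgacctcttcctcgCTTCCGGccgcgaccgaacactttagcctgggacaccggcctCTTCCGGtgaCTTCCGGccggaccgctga
MRPS25: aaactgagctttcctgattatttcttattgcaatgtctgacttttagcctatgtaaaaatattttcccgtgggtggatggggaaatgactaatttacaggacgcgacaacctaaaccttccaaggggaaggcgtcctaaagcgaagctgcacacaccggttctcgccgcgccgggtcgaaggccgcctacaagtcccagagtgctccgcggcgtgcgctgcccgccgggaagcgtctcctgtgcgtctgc

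With PF-03084014 alone no member was called in either direction, against 0.824% of all genes (0.475% higher and 0.349% lower). An unadjusted p under 0.05 was found for 13 members (17.3%), between the 13.3% of all genes and the 25% of 2001 genes within the members' interquartile range of intensity. The members' values were nevertheless mostly below those with DMSO: the median difference was -0.13, against 0.02 over all genes and 0.04 over the 2001 genes of like intensity, and 66 of 75 were below 0. In 48 members both PF-03084014 arrays lay below both DMSO arrays, against 20.8% of all genes, and in 4 both lay above, against 28.0%. The smallest p belonged to MRPS25, a small-subunit protein without a bacterial counterpart, which had 1031 and 947 with PF-03084014 and 1345 and 1272 with DMSO. The groups did not overlap, and the difference was -0.40 ± 0.06 with a limma adjusted p of 0.066. MRPL19, counterpart of bacterial L19 at the subunit interface, had 2539 and 2390 with PF-03084014 and 2797 and 2768 with DMSO, a difference of -0.18 ± 0.04 with an adjusted p of 0.156. The range over all members ran between -0.52 for MRPL17 and 0.08 for MRPL52 and MRPS6.

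With dexamethasone alone the members lay on the other side of DMSO, again with none called in either direction, against 0.101% of all genes (0.0860% higher and 0.0152% lower). An unadjusted p under 0.05 was found for 6 members, or 8%, against 8.96% of all genes and 13.2% of the genes of like intensity. The median difference was 0.11, against 0.01 over all genes and 0.03 over the genes of like intensity, and 3 of 75 members were below 0, namely MRPL17, MRPL39 and MRPL55. Both dexamethasone arrays lay above both DMSO arrays in 48 members, against 26.1% of all genes, and below in 2, against 18.9%. MRPL19 had 3187 and 3201 with dexamethasone and 2797 and 2768 with DMSO, so the groups were apart by more than either spread. Its difference of 0.20 ± 0.04 had the smallest p of the members, at an adjusted p of 0.262. MRPL30, counterpart of bacterial L30, had 2683 and 2695 with dexamethasone and 2377 and 2361 with DMSO, a difference of 0.18 ± 0.04 with an adjusted p of 0.303. The plot of all members by array shows the narrow cloud above 0 for both dexamethasone arrays.

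**Figure D1:**
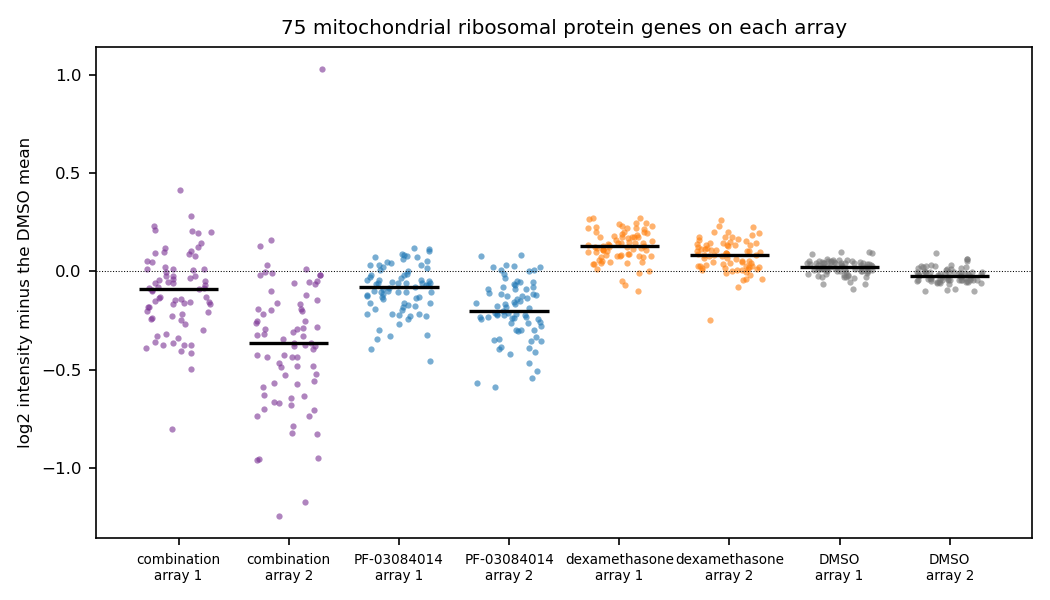
Each point is 1 of the 75 members on 1 array, as log2 intensity minus its mean on the DMSO arrays, with a black bar at the median of each array. The medians were -0.09 and -0.36 with the combination, -0.08 and -0.20 with PF-03084014, 0.13 and 0.09 with dexamethasone, and 0.02 and -0.02 with DMSO.

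With both compounds 7 members fell against DMSO and none rose, where 12.0% of all genes were called, 5.54% lower and 6.43% higher. The members' share called lower, 9.33%, was above that of all genes and near the 10.4% of the genes of like intensity, of which another 12.9% rose. An unadjusted p under 0.05 was found for 31 members (41.3%), against 28.5% of all genes and 48.0% of the genes of like intensity. The median difference was -0.24, against 0.06 over all genes and 0.00 over the genes of like intensity, and 64 of 75 members were below 0. Both combination arrays lay below both DMSO arrays in 46 members, against 22.5% of all genes, and above in 2, MRPL30 and MRPS31, against 30.3%. By subunit, 4 of 50 large-subunit members (8%) were called lower with a median of -0.23, and 3 of 25 small-subunit members (12.0%) with a median of -0.25, both near the share of the genes of like intensity. Of the 45 members with a bacterial counterpart 4 were called (8.89%), and of the 30 without one 3 were called (10%), with medians of -0.26 and -0.18.

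MRPL17, counterpart of bacterial L17 near the exit of the peptide tunnel, fell most. It had 1645 and 1211 with the combination, 2093 and 1910 with PF-03084014, 2736 and 2416 with dexamethasone, and 2741 and 3001 with DMSO. Both combination arrays were below all others, and the PF-03084014 arrays lay between them and the rest. Its difference against DMSO was -1.02 ± 0.16 with a limma adjusted p of 0.0183, the one member beyond a log2 difference of 1. MRPS25 had 927 and 932 with the combination, 1031 and 947 with PF-03084014, 1552 and 1460 with dexamethasone, and 1345 and 1272 with DMSO. The combination arrays were nearly equal here and close to those with PF-03084014 alone, and the difference against DMSO was -0.49 ± 0.06 with an adjusted p of 0.0106. Its other 2 probe sets, which were dimmer, gave -0.05 and -0.18.

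The ribosomal stalk base protein MRPL11 had 2236 and 1839 with the combination against 2866 and 2985 with DMSO, a fall of -0.53 ± 0.10 with an adjusted p of 0.0352. MRPS16, counterpart of bacterial S16, had 1368 and 1089 with the combination against 1779 and 1762 with DMSO and differed by -0.54 ± 0.12 with an adjusted p of 0.0483. A second bright probe set of MRPS16 gave -0.03, with 1330 and 1251 in the combination against 1352 and 1275 with DMSO. The groups did not overlap on the first probe set and overlapped on the second, so the probe sets of this gene disagree in size. MRPL13, counterpart of bacterial L13, had 2176 and 1800 with the combination against 2883 and 2709 with DMSO, a difference of -0.50 ± 0.11 at an adjusted p of 0.0467.

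MRPL39, a large-subunit protein without a bacterial counterpart, had 2514 and 2281 with the combination against 3121 and 3187 with DMSO, at -0.40 ± 0.06 and an adjusted p of 0.0166. MRPS33, a small-subunit protein without one, had the smallest called fall: 3248 and 3011 with the combination against 3673 and 3832 with DMSO, at -0.26 ± 0.05 and an adjusted p of 0.0403. In each of these 7 genes both combination arrays lay below every other array of the series. The same held for 14 members in all (18.7%), against 11.2% of all genes, and for 10 of 50 in the large subunit and 4 of 25 in the small. MRPL12, the stalk protein also reported to bind the mitochondrial RNA polymerase, showed a larger difference than every called member but MRPL17, -0.74 ± 0.28, but its combination arrays of 1624 and 900 lay far apart and the adjusted p was 0.161. MRPS34, MRPL24 and MRPS28 had -0.67, -0.66 and -0.61, with adjusted p-values of 0.0906, 0.0855 and 0.0562.

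Each array was left out in turn. Here and below, an array left alone in its group adds nothing to the estimate of spread. The gap between the arrays of a group had an SD over the members of 0.29 for the combination, against 0.07 to 0.09 for the other groups. Fits without 1 combination array took their spread from the other groups, and their calls rest on 1 combination array. Leaving out an array of a single compound kept the means compared here and changed only how the spread was estimated. The count of calls depended on which arrays were in the fit, for members and for all genes alike. It was 0 without the first DMSO array and 1 without the second, 3 without either PF-03084014 array, 2 without either dexamethasone array, 49 (1 of them higher) without the first combination array, and 7 (1 of them higher) without the second, of which MRPL17, MRPL39 and MRPS25 were among the 7 above. Of all genes, 4.19% and 4.40% were called without the first or second DMSO array, 5.97% to 6.48% without an array of either single compound, 31.4% without the first combination array and 10.7% without the second. MRPS25 was called in 7 of these 8 fits, MRPL17 and MRPL39 in 4 each, and MRPL11, MRPL13, MRPS16 and MRPS33 in 1 each, that without the first combination array.

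**Figure D2:**
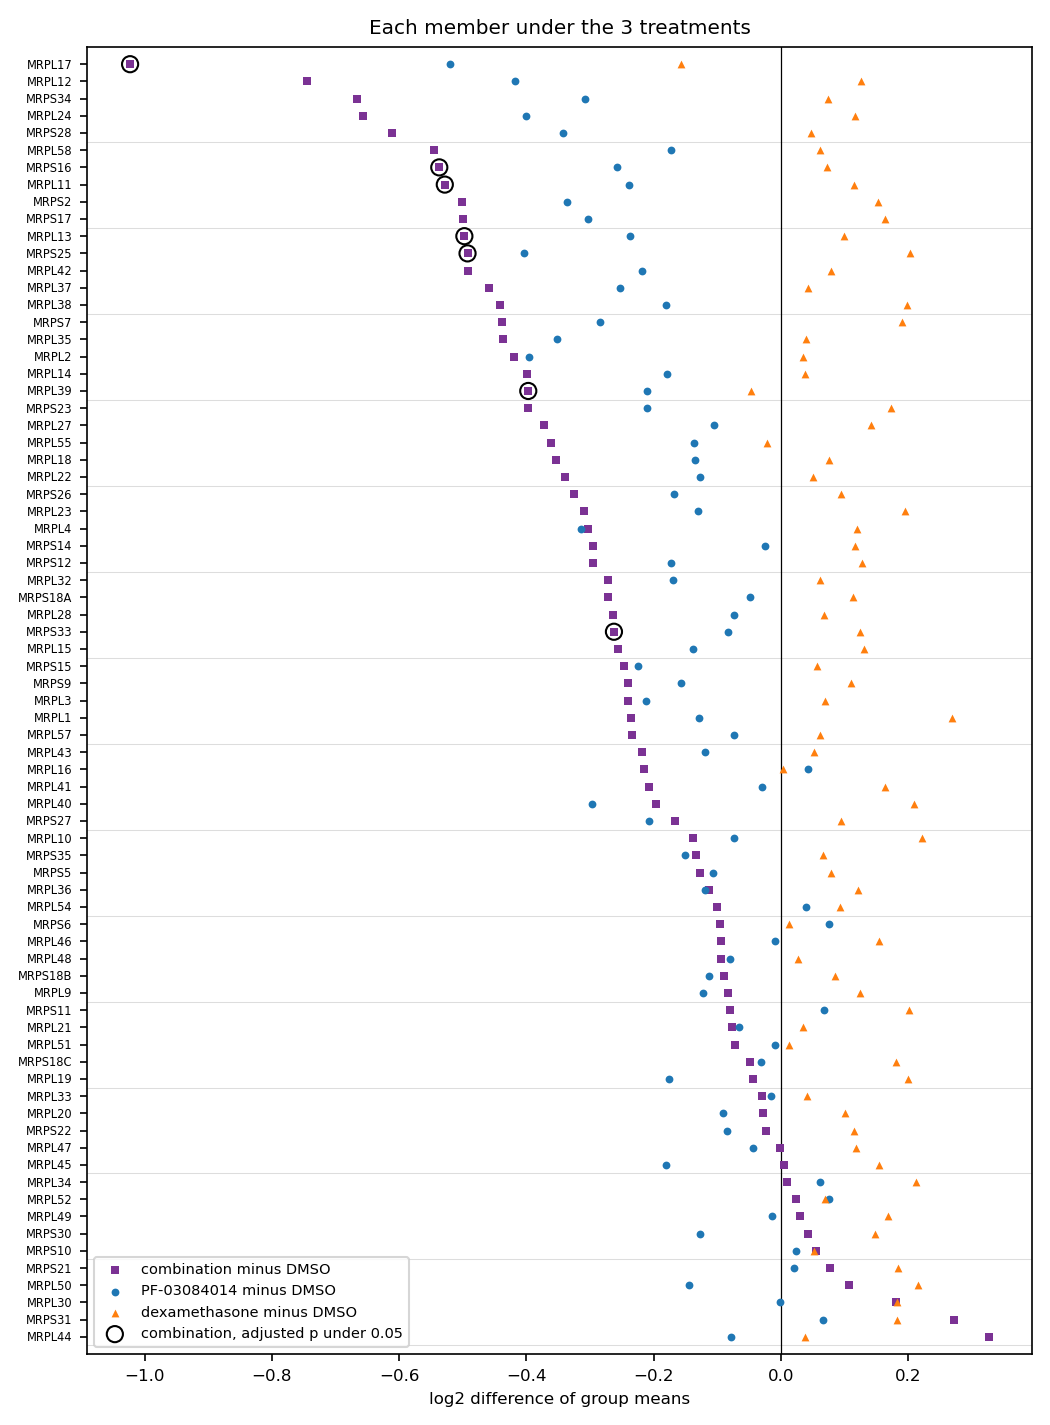
Each row is 1 member, sorted by its log2 difference between the combination and DMSO, with squares for the combination, circles for PF-03084014 and triangles for dexamethasone, each minus DMSO. Black rings mark the 7 members called with the combination; 66 of 75 circles lie left of 0 and 72 of 75 triangles lie right of it.

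The members lay furthest apart between the combination and dexamethasone alone. Here 11 members fell and none rose, where 7.26% of all genes were called, 3.99% lower and 3.27% higher. The members' share called lower was 14.7%, against 8.40% of the genes of like intensity. An unadjusted p under 0.05 was found for 47 members (62.7%), against 25.9% of all genes and 43.7% of the genes of like intensity. The median difference was -0.34, against 0.04 over all genes and -0.02 over the genes of like intensity, with 72 of 75 below 0. Both combination arrays lay below both dexamethasone arrays in 62 members, against 24.4% of all genes, and above in 0 members, against 29.2%. The combination arrays also enter the comparison with DMSO, so the comparisons are not independent. The called members were those named above and MRPS17, MRPL40, MRPS9 and MRPL19.

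MRPS25 had the smallest adjusted p, 0.0122, at -0.70 ± 0.06, and MRPL17 differed by -0.87 ± 0.16 with an adjusted p of 0.041. MRPS17, counterpart of bacterial S17, had 1827 and 1459 with the combination against 2595 and 2574 with dexamethasone, at -0.66 ± 0.12 and an adjusted p of 0.041. MRPL11 and MRPS16 fell by 0.64 ± 0.10 and by 0.61 ± 0.12, with adjusted p-values of 0.0312 and 0.0475. Smaller falls were called for MRPL40 (-0.41), a large-subunit protein without a bacterial counterpart, and for MRPS9 (-0.35), counterpart of bacterial S9. MRPL19 had 2741 and 2658 with the combination against 3187 and 3201 with dexamethasone, at -0.24 ± 0.04 with an adjusted p of 0.0333, while a dim second probe set of it lay at 0.35 and was not called. The plot of the called members sets all 4 treatments side by side: both PF-03084014 arrays of MRPL19 lay below both combination arrays, while those of MRPL40 overlapped.

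Without single arrays the count was 1 without either DMSO array, 2 without either PF-03084014 array, 0 without either dexamethasone array, 60 (1 of them higher) without the first combination array and 4 without the second. Of all genes, 29.4% were called without the first combination array, 5.23% without the second, and 0% to 3.44% without any of the other arrays. MRPS25 was called in 6 of these 8 fits.

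**Figure D3:**
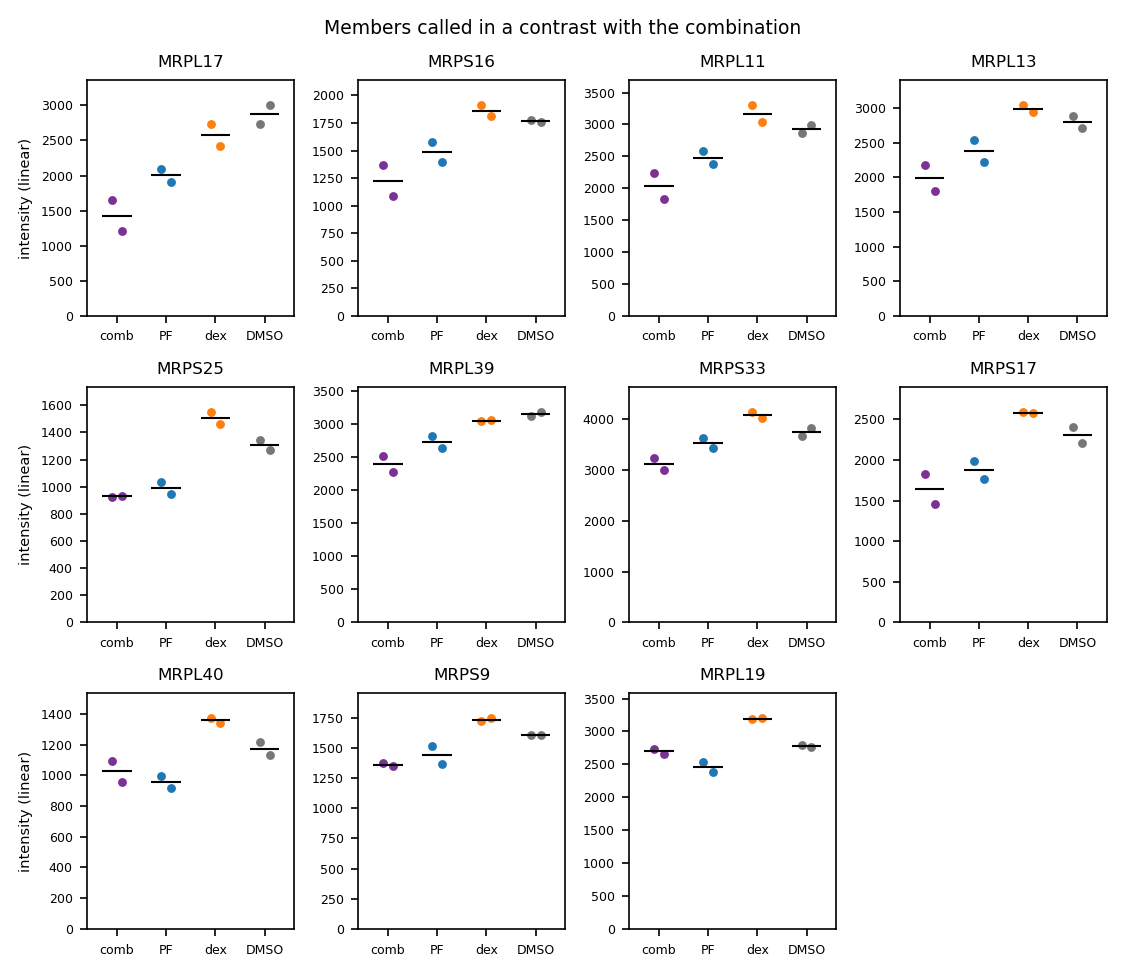
Linear intensity of the 11 members called against DMSO or dexamethasone, 1 panel each, with 2 points per treatment (combination, PF-03084014, dexamethasone, DMSO) and a bar at their mean; axes start at 0. In MRPS25 the combination points of 927 and 932 almost coincide, and in MRPL17 those of 1645 and 1211 lie well apart.

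Between the combination and PF-03084014 alone no member was called in either direction, where 2.87% of all genes were (1.10% higher and 1.77% lower). An unadjusted p under 0.05 was found for 11 members (14.7%), below the 18.7% of all genes and the 30.5% of the genes of like intensity. The median difference was -0.10, against 0.03 over all genes, with 55 of 75 below 0. The arrays of both groups overlapped in 54 members. Both combination arrays lay below in 15, against 21.0% of all genes, and above in 6, against 24.4%. The smallest p belonged to 2 members that were higher with the combination: MRPL30 with 2717 and 2652 against 2448 and 2289, a difference of 0.18 ± 0.04 and an adjusted p of 0.105, and MRPS30 with 1753 and 1642 against 1515 and 1502, a difference of 0.17 ± 0.05 and an adjusted p of 0.141. MRPS30, despite its name, sits in the large subunit. In the interaction, which asks whether the combination differs from the sum of the single effects, 0.00% of all genes were called and no member was, with 6 members (8%) at an unadjusted p under 0.05, against 9.09% of all genes and 13.1% of the genes of like intensity. The members' median there was -0.22, against 0.00 over all genes and -0.07 over the genes of like intensity, with 70 below 0. That median was -0.37 with 72 below 0 without the first combination array, against 0.01 over all genes. Without the second it was -0.05 with 51 below 0, against -0.02 over all genes. MRPS33 had the smallest p, at -0.30 ± 0.08 and an adjusted p of 0.402, followed by MRPS25 at -0.29 ± 0.09 and 0.449.

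The 2 combination arrays gave different sizes for the members as a group. Relative to the DMSO mean, the median was -0.09 on the first array with 53 of 75 below 0, and -0.36 on the second with 70 below 0. Relative to dexamethasone the medians were -0.22 and -0.46. Relative to PF-03084014 they were 0.05 and -0.26, with 25 and 65 members below 0, so the sign of that comparison differed between the arrays. The second array was below the first in 69 of 75 members with a median gap of -0.28, whereas the gap between the arrays of a group was -0.10 for PF-03084014, -0.06 for dexamethasone and -0.05 for DMSO. On the second array 24 members lay more than 0.5 below the DMSO mean, against 1 on the first.

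Other gene sets moved either way on the second combination array. Cytosolic ribosomal protein genes lay at 0.03 and -0.15 on the combination arrays, with the second below the first in 56 of 60. Genes for subunits of complex I, the first enzyme of the respiratory chain, lay at -0.03 and -0.22, with 30 of 32 lower on the second. The 2001 genes of like intensity lay at 0.04 and -0.02. Of 18 mitochondrial tRNA synthetases 15 were lower on the second array, of 15 mitochondrial translation factors 12, and of 22 mitoribosome assembly factors 16. Of 10 mitochondrial transcription and nucleoid genes 6 were lower, and of 9 regulators of mitochondrial genes 4. Of the 13 T-lineage genes 10 were lower, with a median gap of -0.155. Markers of cell types other than T cells, with median intensities of 50.2 to 65.1 per list, were higher on the second array than on the first in 8 of 8 epithelial and stromal genes (median gap 0.71), 5 of 5 erythroid and megakaryocyte genes (0.80) and 5 of 6 B-lineage genes (0.29), and 1 of 5 myeloid genes. Over all genes, with a median intensity of 137, the median gap was 0.03 and 42.4% were lower on the second array. No share was taken over genes as dim as these markers. The part of these markers in the members' gap was not tested. The part of that array's higher median and 3-prime ratios in the gap was not tested.

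**Figure D4:**
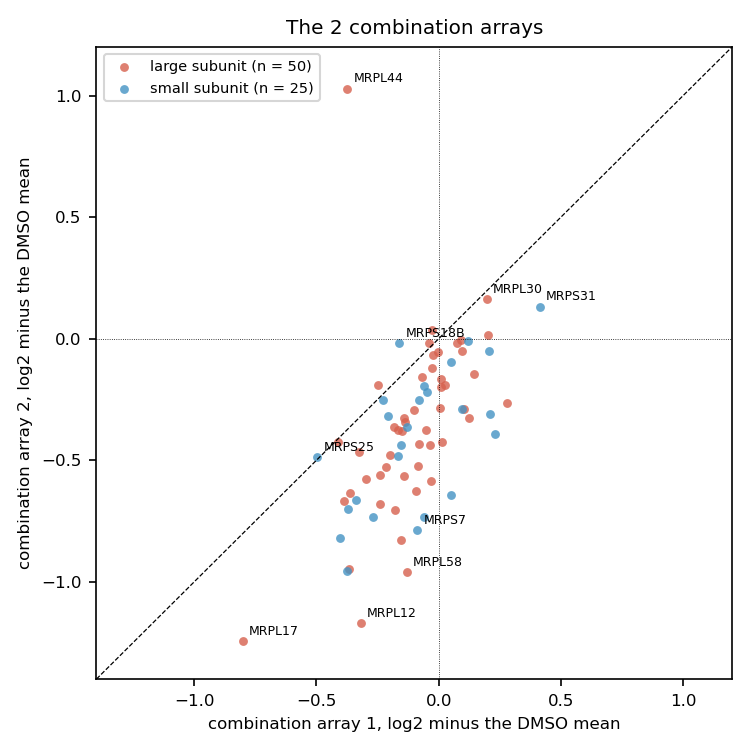
Each point is 1 member, with log2 intensity minus the DMSO mean on the first combination array (horizontal) and on the second (vertical), coloured by subunit; the dashed line marks equal values. Of the 75 points 69 lie below the line, MRPS25 lies almost on it, and MRPL44 lies far above it.

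The 5 members with the widest gap between the combination arrays were MRPL44, MRPL12, MRPL58, MRPS7 and MRPS12. MRPL44, which carries a domain related to ribonuclease III, had 568 and 1502 with the combination, against 692 and 702 with PF-03084014, 688 and 831 with dexamethasone and 738 and 735 with DMSO. The probe set used has a name ending in _x_at, the maker's mark for probes that may match other sequences, and the gene's other probe set went the opposite way, with 676 and 432 in the combination against 658 and 674 with DMSO. MRPL12 followed with a gap of -0.85. MRPL58, a peptidyl-tRNA hydrolase built into the large subunit, had 1202 and 676 with the combination against 1408 and 1228 with DMSO, at -0.55 ± 0.27 and an adjusted p of 0.252. MRPS7, counterpart of bacterial S7, and MRPS12, counterpart of the decoding-site protein S12, had gaps of -0.70 and -0.69. In MRPS12 the combination arrays of 2107 and 1304 overlapped the DMSO values of 2166 and 1911, and the difference of -0.30 ± 0.24 had an adjusted p of 0.459.

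Other members with known roles were not called. MRPL3, counterpart of bacterial L3 next to the peptidyl transferase centre, had 6718 and 5827 with the combination against 7415 and 7364 with DMSO, a difference of -0.24 ± 0.08 with an adjusted p of 0.11. MRPL41, reported to promote cell death when overexpressed, had 2582 and 1904 against 2638 and 2483, so its groups overlapped, at an adjusted p of 0.402. The 3 proteins related to bacterial S18 differed among themselves. MRPS18A, which sits in the large subunit, had 903 and 796 with the combination against 1057 and 992 with DMSO and differed by -0.27 ± 0.08 with an adjusted p of 0.0958. MRPS18B had 3934 and 4339 with the combination against 4406 and 4390 with DMSO, and was 1 of the 6 members higher on the second combination array than on the first. MRPS18C had 2868 and 1998 against 2569 and 2387, overlapping with DMSO at an adjusted p of 0.903. A few members were higher with the combination than with DMSO, of which MRPS31, a small-subunit protein, had 2641 and 2174 against 1954 and 2014, at 0.27 ± 0.09 and an adjusted p of 0.134.

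Where a member had more than 1 probe set, the others served as a second reading. Of 65 further probe sets 46 had a mean of 100 or more, and 30 of these had the sign of the chosen one for the combination against DMSO, with a median of -0.12 and none called. For PF-03084014 and dexamethasone 35 and 39 of the 46 had the same sign, with medians of -0.11 and 0.11.

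Genes whose products work with the mitochondrial ribosome are counted beside 5.54% of all genes called lower and 6.43% called higher for the combination against DMSO, and 3.99% and 3.27% against dexamethasone; the lists are small. Of 4 mitoribosomal proteins with other symbols (DAP3, PTCD3, CHCHD1 and GADD45GIP1) none was called with the combination. GADD45GIP1 had the widest difference, with 1533 and 722 against 2138 and 2000 with DMSO, at -0.97 ± 0.34 and an adjusted p of 0.139. Of 15 translation factors and their regulators LRPPRC, which stabilises mitochondrial messenger RNA, and the release factor MTRF1 fell, by 0.24 ± 0.04 and by 0.29 ± 0.06, with adjusted p-values of 0.0193 and 0.048. These 2 made 13.3%, the same share was called lower against dexamethasone, and none of the 15 rose against DMSO. Of 22 assembly factors 1 fell (4.55%): MTERF3, a factor that binds mitochondrial nucleic acid in ribosome assembly, had 1806 and 1864 with the combination and 1738 and 1753 with PF-03084014, against 2199 and 2322 with DMSO. It was called for PF-03084014 too (-0.37 ± 0.04, adjusted p 0.0338) as well as for the combination (-0.30 ± 0.04, adjusted p 0.0123).

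Of 18 mitochondrial aminoacyl-tRNA synthetases and related enzymes, which charge the transfer RNAs used by this ribosome, 3 fell with the combination (16.7%) and none rose, and 5 fell against dexamethasone (27.8%). EARS2, the glutamate enzyme, had 431 and 367 with the combination against 658 and 601 with DMSO, at -0.66 ± 0.11 and an adjusted p of 0.0233. LARS2 and NARS2, for leucine and asparagine, fell by 0.38 ± 0.06 and by 0.32 ± 0.04. The median of the 18 was -0.27. Of 10 genes of mitochondrial transcription and the nucleoid none fell and 1 (10%), the transcription terminator MTERF1, rose by 0.31 ± 0.05 with an adjusted p of 0.0209. Of 9 regulators of mitochondrial genes 1 (11.1%) fell, PPRC1, a coactivator related to PGC-1: 631 and 610 with the combination against 934 and 830 with DMSO, at -0.51 ± 0.07 and an adjusted p of 0.0155. MYC had 4145 and 3572 with the combination and 3791 and 3559 with PF-03084014, against 4878 and 4256 with DMSO, and was not called, at adjusted p-values of 0.19 and 0.28. NRF1 was near 0 in the combination at 0.01 ± 0.07, and GABPA had 0.32 ± 0.15 with an adjusted p of 0.237.

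The members are set beside the ribosome of the cytosol and complex I as a description, since differences between these sets were not tested. The medians for PF-03084014 against DMSO were -0.13 for the 75 members, 0.02 for 60 cytosolic ribosomal protein genes and -0.03 for 32 complex I genes. With dexamethasone they were 0.11, 0.02 and 0.07, and with the combination -0.24, -0.06 and -0.13. Most sets closer in function lay near the members with the single compounds. With PF-03084014, dexamethasone and the combination, 18 tRNA synthetases had -0.15, 0.09 and -0.27. The values were -0.13, 0.12 and -0.15 for 15 translation factors and -0.14, 0.12 and -0.12 for 10 transcription and nucleoid genes. The 22 assembly factors had -0.11, 0.10 and -0.13. The 9 regulators had -0.01, -0.01 and -0.003. Calls with the combination were 7 lower among the members (9.33%), 1 lower among cytosolic ribosomal proteins (1.67%) and 0 in complex I. Beside these stand 5.54% of all genes and 10.4% of the genes of like intensity called lower. The sets differed in brightness, with median intensities of 2414, 14009 and 5823, and the part of this was not tested.

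**Figure D5:**
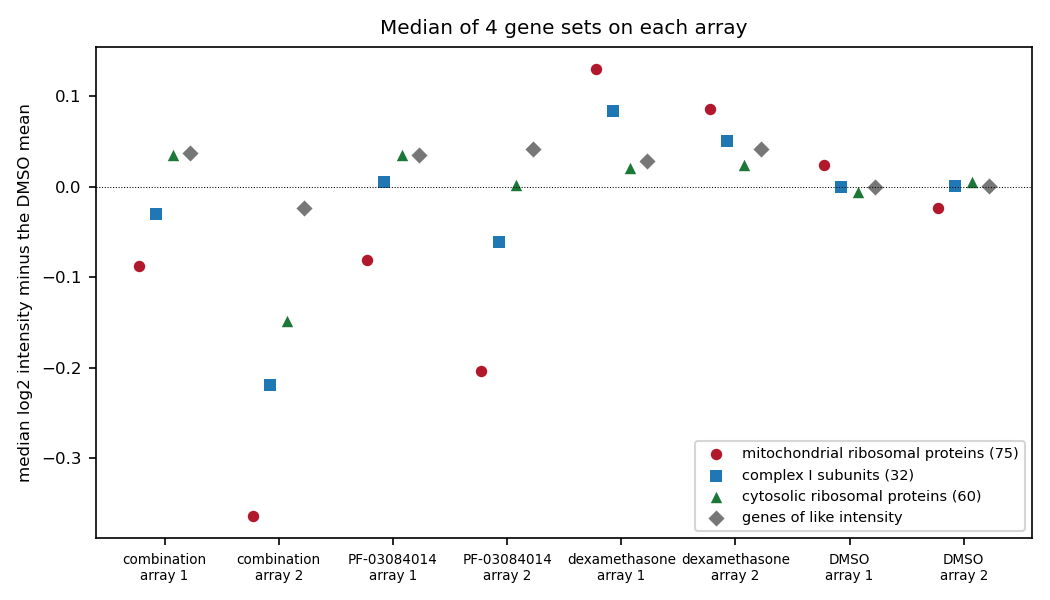
Median log2 intensity minus the DMSO mean on each of the 8 arrays, for the 75 members (circles), 32 complex I genes (squares), 60 cytosolic ribosomal protein genes (triangles) and 2001 genes of like intensity (diamonds). The members have the lowest median of the 4 sets on each combination and PF-03084014 array and the highest on each dexamethasone array. Gene sets closer in function to the members are not plotted.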

How the data were processed

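Values were the probe-set intensities that the authors deposited, on a linear scale, for 54675 probe sets on 8 arrays. Per the labels' protocols, RNA was labelled with a kit that primes at the 3-prime end. How probes were summarised, background-corrected and normalized is not stated in those sources. Genes were named through the platform annotation supplied: 42898 probe sets carried a gene, 1801 listed several and were left out, and of the 41097 used 41043 matched RefSeq. Each gene was read by its brightest probe set, with no filter on dim genes.

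Intensities were floored at 16, taken to log2 and fitted with limma 3.58.1 (R 4.3.3, statmod 1.5.0): all 8 arrays in 1 model of group means, with trended eBayes moderation. The residual degrees of freedom were 4 and the prior ones 1.35 (median). Tests set each treatment against DMSO, the combination against either compound alone, and the interaction. All groups share 1 estimate of spread, so the gap between the combination arrays also enters the standard errors of the other comparisons. Precision is limited by the 2 arrays per group. The code was tested on simulated data.

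Members, lists and alternatives were chosen with earlier results of these data known. Members named were the 10 called with the largest rise and fall against DMSO (5 in other contrasts; with none called, the 2 with the smallest p), the 5 brightest and 5 dimmest, the 5 with combination arrays farthest apart, those whose probe sets disagree in sign where 1 was called, and a set of members with known roles. MRPL24, MRPS34, MRPS28, MRPS31, members named only as range ends or in a short count, and MYC, NRF1 and GABPA were chosen after their values were seen. Samples with the same replicate number did not deviate together (correlations between -0.01 and 0.08 over genes). Alternatives tried were other scalings, floors, filters, probe-set choices and fits, and each array left out in turn. Promoter windows came from RefSeq on GRCh38.p14 and motifs were searched on both strands of 250 bases.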

Additional observations from a re-analysis of the deposited data

How the results depend on the processing

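Under every alternative tried, the members' median against DMSO kept its direction. It ran from -0.20 to -0.08 for PF-03084014, 0.08 to 0.13 for dexamethasone and -0.37 to -0.09 for the combination. Several alternatives could not move these medians, because they leave the members' group means as they are. These were the higher floor, the dim-gene filter, the fit without trend, the fit of only the groups compared and the replicate block. Leaving out an array of a group not compared could not move them either. The kept direction was therefore a check only under the other alternatives. Standard errors and 2 arrays per group limit what can be called. With the fit restricted to the groups compared, no gene and no member was called in any contrast of 2 groups. Such a fit has only 2 residual degrees of freedom among the samples. The interaction needs all groups and was not fitted in this way.

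For the combination against DMSO, 7 members (9.33%) were called, beside 12.0% of all genes. With quantile normalization 12 were called (MRPL30 higher), 16% beside 12.1% of all genes. With every array shifted to one median 1 was called, 1.33% beside 4.95%. A floor of 64 gave 4 (MRPL30 higher), 5.33% beside 9.69%. A pseudocount of 16 gave 17 (22.7%) beside 14.2%, and the fit without the dim genes 23 (30.7%) beside 31.4%. The mean of all probe sets gave 3, 4% beside 8.04%. Without _x_at and _s_at probe sets 1 of 44 testable members was called (MRPS5, not among the 7), 2.27% beside 10.2%. Without the intensity trend 3 were called, 4% beside 9.83%. The fit of only these groups called 0 members and 0% of all genes. With the replicate block 11 were called, 14.7% beside 11.5%, 6 of them among the 7. Leaving out 1 array gave 0 to 49, beside 4.19% to 31.4% of all genes. Against dexamethasone, 11 were called, and in the same order 14, 1, 6, 28, 37, 4, 3, 3 and 0, with 16 under the replicate block, 0 to 60 leaving out 1 array, and 7 without the second combination array after quantile normalization, a setting chosen after seeing the data. Against PF-03084014, where none was called, leaving out 1 array gave 0 to 30, beside 0.0506% to 19.8% of all genes. The 30 members and the 19.8% of all genes both came from the fit without the first combination array. After quantile normalization without the second combination array 1 was called, 1.33% beside 2.07%. For PF-03084014 against DMSO, 1 (MRPS25) was called without the dim genes. The interaction gave 0 to 13 leaving out 1 array, beside 0% to 5.15% of all genes.

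With every array shifted to one median the members' median for the combination was -0.37 against DMSO, -0.49 against dexamethasone and -0.23 against PF-03084014. For the interaction it was -0.37, where the median of all genes was -0.14. Leaving out 1 array gave medians for the combination of -0.36 to -0.087 against DMSO, -0.46 to -0.22 against dexamethasone and -0.26 to 0.050 against PF-03084014. For the interaction they were -0.37 to -0.049, and the extremes in each case were those without 1 combination array. Quantile normalization without the second combination array was a setting chosen after seeing the data. The 4 medians there, in this order, were -0.10, -0.22, 0.048 and -0.031. The 20 values tracked for named members kept their direction in the alternatives run for them. The alternatives named above that leave group means as they are could not change these values. The causes of the differences between alternatives were not tested.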
